A study of Mus musculus with 11 samples.

Results

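The nuclear genes that build, copy and shape mitochondria were followed through the chromatin of mouse hematopoietic stem cells (HSCs). The set held 39 genes, given by name: regulators of mitochondrial biogenesis, factors that transcribe and copy mitochondrial DNA (mtDNA), fusion and fission proteins, proteases, import receptors, outer membrane channels and a few genes of fuel use. Every accessible region (peak) whose assigned gene carried the mouse Entrez identifier of one of these genes was taken, and all 39 had at least 1. They held 133 of the 94410 peaks in the deposited tables, which cover 20810 genes. Of the 133 peaks, 45 were promoter peaks in the authors' annotation, which reaches 3 kb from a start site, and 88 lay elsewhere.

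ATAC-seq uses a transposase to cut open chromatin and tag it with adapters, and it was run on HSCs purified from bone marrow at steady state. Every group was homozygous for a GFP-LC3 reporter (genotype Gfplc3/Gfplc3), a fusion protein that is degraded when autophagy runs, so all comparisons are among reporter mice. Old AThi HSCs (high autophagy, low GFP; 3 libraries) and old ATlo HSCs (low autophagy, high GFP; 3 libraries) were sorted as pairs, and young HSCs (5 libraries) were not fractionated by GFP. Isolation and transposition ran over 2 days, and the sources used here do not state the day of each library, the number of animals in it, or their sex and exact age. Age, fractionation and any uneven split over days therefore cannot be told apart in the comparisons with young HSCs.

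Mitochondria carry a small circular genome, but nearly all of their proteins are encoded in the nucleus, made in the cytosol and imported through the TOM and TIM complexes. The coactivators of the PGC-1 family act on transcription factors such as NRF1, GABP and ERRα to raise the expression of these nuclear genes, and TFAM, the POLRMT polymerase and the POLG, POLG2 and Twinkle replication proteins maintain the mtDNA. HSCs are known to keep their mitochondria relatively inactive and to clear some of them by autophagy, which makes promoters of this machinery of interest beside an autophagy reporter.

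The promoters of 4 of these genes are printed here because the results turn on them: Polg, which fell in both old fractions, Esrra and Tomm20, which fell in ATlo HSCs, and Tfam, which shares a motif with Polg. Each is the RefSeq sequence of build GRCm38.p6 for the 250 bases before the annotated start, read 5′ to 3′ on the strand of the gene, and capitals mark a match to a motif named below. They lie at chr7:79466274-79466523 (Polg, minus strand), chr10:71238045-71238294 (Tfam, minus), chr8:126945922-126946171 (Tomm20, minus) and chr19:6921809-6922058 (Esrra, minus). Peak coordinates elsewhere in the text are mm39.
Polg promoter: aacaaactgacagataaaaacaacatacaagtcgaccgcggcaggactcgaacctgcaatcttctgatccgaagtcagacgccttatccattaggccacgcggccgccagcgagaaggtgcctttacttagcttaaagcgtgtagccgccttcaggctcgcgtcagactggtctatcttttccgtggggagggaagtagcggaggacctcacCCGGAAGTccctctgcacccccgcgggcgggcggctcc
Tfam promoter: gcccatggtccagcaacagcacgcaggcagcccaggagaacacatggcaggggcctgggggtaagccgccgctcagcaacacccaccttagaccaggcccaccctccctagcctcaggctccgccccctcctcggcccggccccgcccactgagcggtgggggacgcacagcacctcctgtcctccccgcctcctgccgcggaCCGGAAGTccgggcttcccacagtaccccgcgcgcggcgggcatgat
Tomm20 promoter: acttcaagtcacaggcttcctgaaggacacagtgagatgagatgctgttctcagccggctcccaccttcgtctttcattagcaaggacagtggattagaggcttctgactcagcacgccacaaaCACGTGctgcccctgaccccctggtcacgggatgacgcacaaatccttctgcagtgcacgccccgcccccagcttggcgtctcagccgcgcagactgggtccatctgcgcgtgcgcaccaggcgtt
Esrra promoter: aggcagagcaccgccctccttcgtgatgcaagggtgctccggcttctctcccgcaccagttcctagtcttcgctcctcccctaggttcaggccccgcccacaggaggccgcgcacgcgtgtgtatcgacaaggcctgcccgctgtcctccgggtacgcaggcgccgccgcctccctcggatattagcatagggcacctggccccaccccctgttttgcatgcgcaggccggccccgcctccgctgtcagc
The capitals mark CCGGAAGT, a core of the sites bound by GABP and other ETS factors, starting 38 bases before the start of Polg and 47 before that of Tfam, and CACGTG, an E-box, 126 bases before the start of Tomm20.

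A RefSeq promoter window of 300 bases (250 before and 50 after a start) was found for 36 of the 39 genes. On either strand, CCGGAAGT was present in 9 of the 36 (25%), namely Fis1, Mfn1, Mief1, Polg, Sirt3, Tfam, Timm23, Tomm70a and Twnk, beside 4.31% of 27025 genes with a window. The NRF1 core GCGCATGCG was present in Opa1 and Tfb2m (5.56% of members, 1.95% of all genes), and CACGTG in Lonp1, Mief2, Phb and Tomm20 (11.1% of members, 8.09% of all genes). None of the 36 windows held the ERR core TCAAGGTCA (0.466% of all genes), the YY1 core AAGATGGCG (1.64%) or the cyclic AMP response element TGACGTCA (2.03%), which says only that these letters are not in these windows. The windows were rich in G and C (median 59.9%, against 52.7% over all genes) and in CpG (median observed over expected 0.793, against 0.389). A gene counted as holding a motif when any of its windows did. The motif shares over all genes were not matched for base composition, and their differences from the members were not tested. For Ppargc1a the window lies at another start than the one at its main promoter peak, so its sequence does not describe that peak. A second gene started within 1 kb in the opposite direction at 10 of the 36, among them Twnk with Mrpl43, Sirt3 with Psmd13, Timm23 with Parg and Lonp1 with Catsperd. By the start sites in the deposited tables, another gene started inside the main promoter peak at Tfb1m and Tfb2m. That search saw only starts to which a peak had been assigned, so it can miss genes that share a member's peak. In RefSeq the starts of Mrpl43, Psmd13, Parg and Catsperd lay within the 250 bases before a start of Twnk, Sirt3, Timm23 and Lonp1. Changes at those promoters may therefore not belong to the member alone, which was not tested.

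Most of these promoters were strong, open sites in HSCs. A main promoter, the promoter peak with the highest mean normalised count, could be named for 38 genes, and it lay over the start site in 36. Levels of the 38 main promoters in the authors' deposited table were 113 at the lowest, 266 at the median and 946 at the highest in normalised counts averaged over all libraries, beside a median of 92.3 over all 22890 promoter peaks. Per kb of peak the members ran from 79.9 through a median of 199 to 643, against a median of 107 over all promoter peaks. Levels per kb are the authors' deposited levels divided here by peak width. The 3 highest belonged to Polg2 (643), Tomm40 (620) and Tfb1m (392), and the lowest to Timm23 (79.9) and Mfn2 (81.8). The 88 peaks outside promoters were far weaker, with a median of 18.4 and a range from 5.60 to 141. Of these, 47 were distal intergenic, 33 in introns, 6 in exons and 2 in 3′ UTRs; 37 lay more than 20 kb from the start site, and 10 lay in or at another gene.

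The deposited tables give 1 mean level per peak over all libraries and no value per library, so the spread appears as the SE of each change and group levels were solved from that mean and the fold changes, assuming an unweighted mean over all 11 libraries. These group levels are approximate and carry no error of their own. Both comparisons with young HSCs use the same 5 young libraries. A change is a log2 ratio of normalised counts, and a peak is called when its adjusted p (Benjamini-Hochberg over peaks) is under 0.05. Fewer cells with an open site and a less open site in each cell cannot be told apart in such bulk libraries.

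On the authors' scaling most promoters of the set lay below their young level in both old fractions. This lean was lost when the strongest promoters served as the zero point. A few distant peaks lay far above their young level, and that zero point could only raise them further. In AThi HSCs, 1 of the 45 promoter peaks fell (2.22%) and 0 rose, in the authors' deposited table, where 4.44% of all promoter peaks were called lower and 7.12% higher. In ATlo HSCs, 8 of the 45 fell (17.8%) and 0 rose, where 5.98% of all promoter peaks were called lower and 5.69% higher in the authors' deposited table. At an unadjusted p under 0.05 the members' counts were 18 lower and 1 higher in AThi HSCs and 22 lower and 0 higher in ATlo HSCs. The same threshold was passed by 15% of all promoter peaks downward and 11% upward in AThi HSCs, and by 19.5% and 9.6% in ATlo HSCs; among strong promoters, defined next, these shares were 22.6% and 8.96% in AThi HSCs and 34% and 6.08% in ATlo HSCs. Strong promoters fell more often than weak ones across the genome, so promoters within 1 kb of a start and with a mean of at least 100 normalised counts, a set chosen after the data were seen, give the nearer background. Of the members' 39 promoter peaks of that kind, 1 fell in AThi HSCs (2.56%) and 8 fell in ATlo HSCs (20.5%). Of all promoters of that kind, 6.51% were called lower and 5.68% higher in AThi HSCs, and 11% lower and 3.71% higher in ATlo HSCs. The members' share in AThi HSCs was thus below the background and that in ATlo HSCs above it, and the difference between members and background was not tested.

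**Figure D1:**
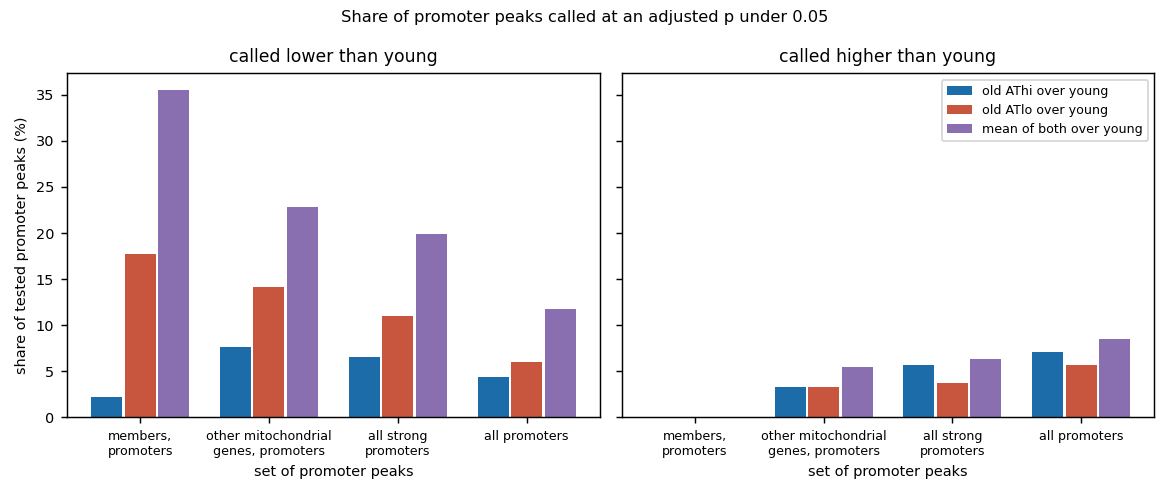
Share of promoter peaks (%) called lower (left) and higher (right) than young at an adjusted p under 0.05, for the 39 genes, a list of other mitochondrial genes, promoters with a mean of at least 100 normalised counts, and all promoters. Bars are AThi over young, ATlo over young and the mean of both over young; the members' bars on the left reach 2.22%, 17.8% and 35.6%, and none appears on the right.

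The direction was shared by most promoters. In the authors' deposited tables, 39 of 45 promoter peaks had a change below 0 in AThi HSCs (86.7%, beside 61.6% of all promoters and 72.1% of strong ones) and 41 of 45 in ATlo HSCs (91.1%, beside 64.8% and 79.7%). The median change of the members' promoters was -0.20 in AThi HSCs, against -0.11 over all and -0.16 over strong promoters. In ATlo HSCs it was -0.33, against -0.14 over all and -0.23 over strong promoters. When changes were recentred so that the 2289 strongest promoters (a mean of at least 327) had a median of 0, a shift of -0.22 in AThi and -0.30 in ATlo HSCs, the members' promoter medians became 0.01 and -0.03 and the excess of falls was lost. Polg in ATlo HSCs was then the only member promoter still called lower, at -0.38 (adjusted p = 0.0337), and Polg2 (0.38 in AThi, 0.32 in ATlo HSCs), Nrf1 (0.59 in AThi HSCs) and Tomm22 (0.53 in AThi HSCs) were called higher. The promoter falls reported below are on the authors' scaling, and apart from Polg none passed once measured against the strongest promoters. Because these shifts are negative, recentring raises every change from young and cannot undo the sign of a rise.

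**Figure D2:**
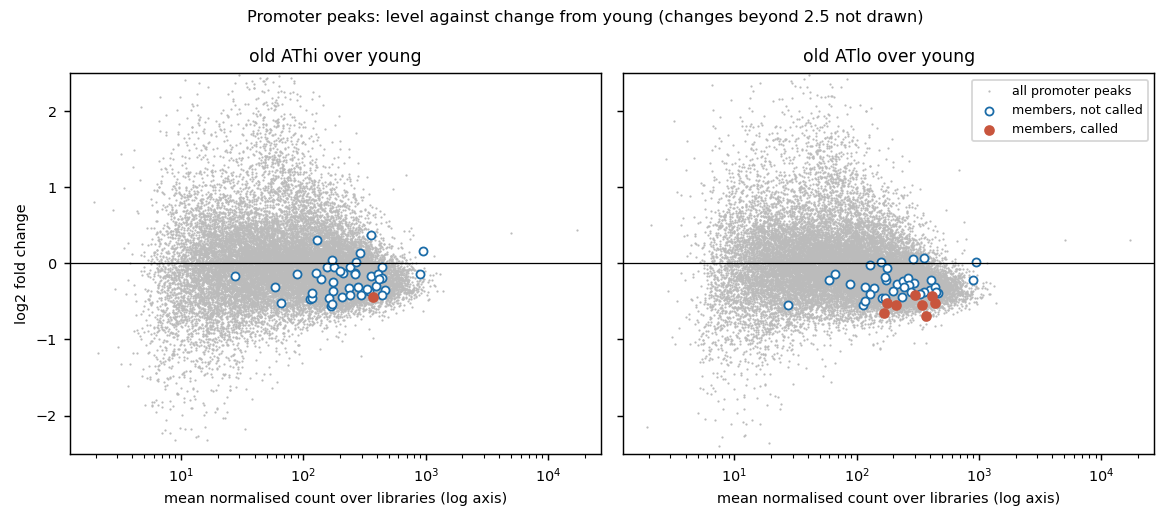
Log2 change from young (y axis) against mean normalised count (x axis, log scale) for all promoter peaks (grey) and the promoter peaks of the 39 genes (circles; filled where the adjusted p was under 0.05), in AThi (left) and ATlo HSCs (right). The cloud of all promoters sinks below 0 at high levels, and the members lie within it.

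To gain precision, the AThi and ATlo changes from young were averaged, with an SE that takes their shared young libraries into account, and tested over all 94410 peaks. The old libraries were sorted as pairs, and whether the authors' fit took the pairs into account is not stated; what pairing would do to the pooled calls was not tested. In this pooled comparison 16 of 45 promoter peaks were called lower (35.6%) and 0 higher, where 11.8% of all promoter peaks were called lower and 8.56% higher, and 19.9% lower and 6.32% higher among strong promoters. The 16 peaks belonged to 15 genes: the 8 that fell in ATlo HSCs, and Ppargc1b, Tfam, Tfb1m, Mfn2, Oma1, Timm23 and Sirt3, with both the main and a second promoter peak of Cpt1a. The pooled median was -0.29 for the members, -0.13 for all promoters and -0.20 for strong ones. After recentring on the strongest promoters, 1 member promoter was called lower (Polg, -0.31, adjusted p = 0.0366) and 4 higher (Nrf1, Polg2, Tomm22 and Vdac3).

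Between the old fractions no member peak was called. Of all 94410 peaks, 0 passed an adjusted p under 0.05 in the authors' deposited table (0%), where the smallest adjusted p was 1.00. Unadjusted p-values under 0.05 were found at 2 of the members' 133 peaks (1.504%), beside 1683 of all peaks (1.78%). One was a distal peak of Tfam 8.95 kb upstream (log2 AThi over ATlo 1.12, unadjusted p = 0.0402) and the other a peak of Nrf1 5.09 kb upstream (-0.68, unadjusted p = 0.0478), both in the authors' deposited DESeq2 table. Of the 38 main promoters, 33 were higher in AThi than in ATlo HSCs, with a median log2 difference of 0.11 beside 0.05 over all promoter peaks and 0.08 over strong ones. Of the members' 45 promoter peaks 17.8% were lower in AThi than in ATlo HSCs, beside 39.3% of all promoter peaks and 27.2% of strong ones. The difference from the background was not tested. Recentred on the strongest promoters, 22 of the 38 were higher. The 95% intervals of single main promoters ran from -0.55 at the lowest to 0.71 at the highest. This comparison is also the test of whether a member's change from young differs between the fractions, and none did at an adjusted p under 0.05.

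**Figure D3:**
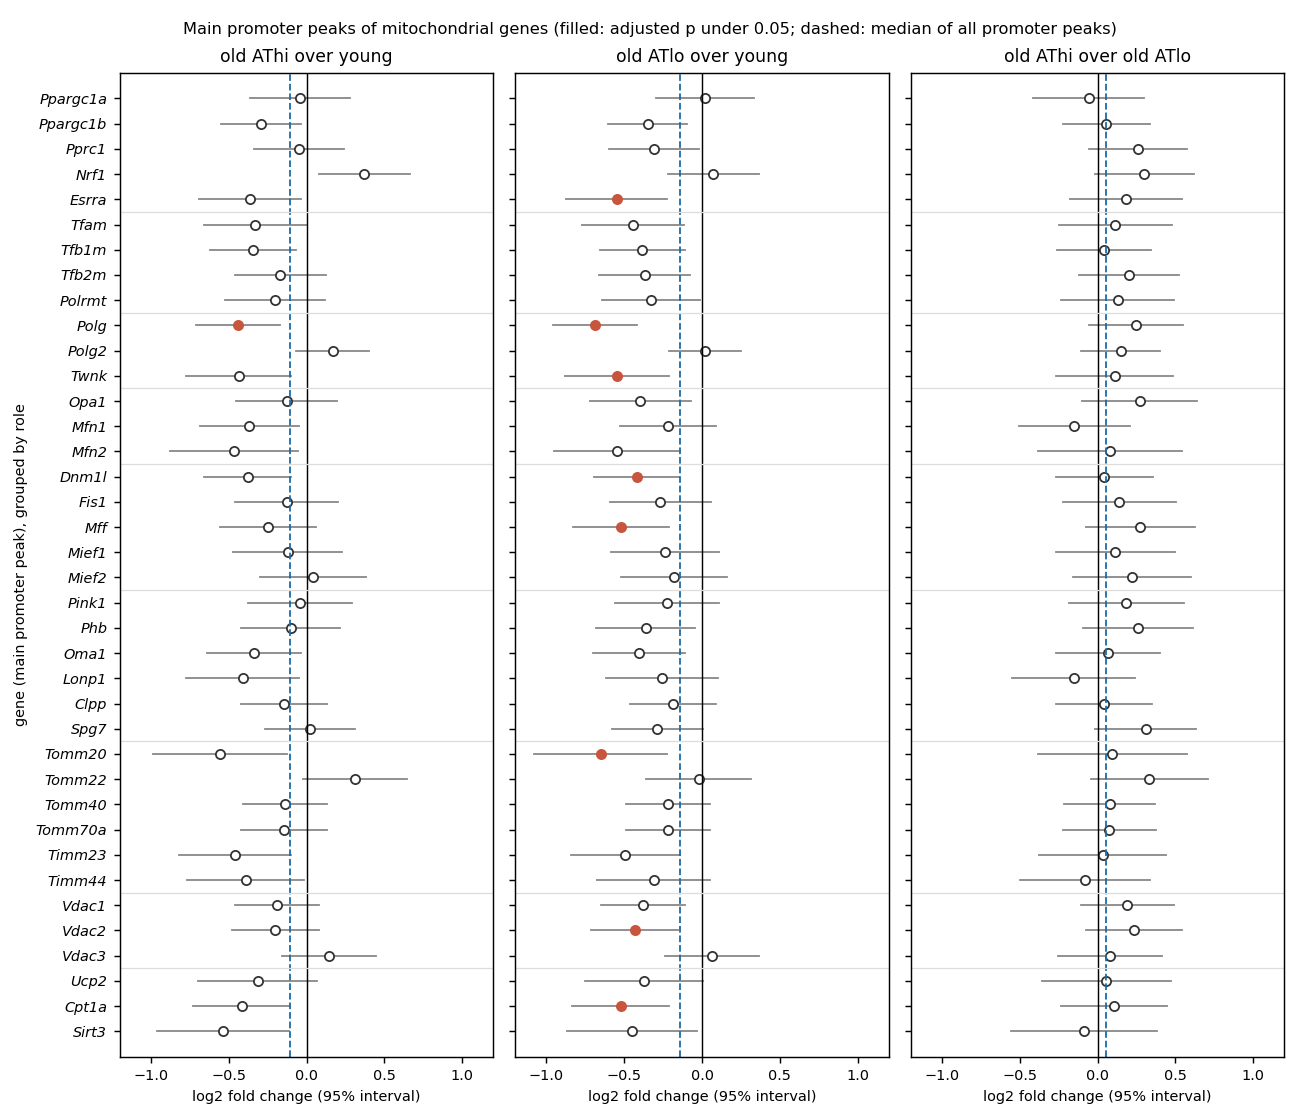
Log2 fold change with its 95% interval (x axis) of the main promoter peak of 38 genes, ordered by role (y axis), for AThi over young, ATlo over young and AThi over ATlo. Filled points passed an adjusted p under 0.05 and the dashed line is the median of all promoter peaks; Polg is filled in both comparisons with young, and no point is filled between the old fractions.

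Among the regulators of biogenesis, the receptor gene Esrra fell in ATlo HSCs and the 3 coactivator genes did not pass at their promoters. Esrra encodes ERRα, an orphan nuclear receptor that binds with PGC-1 coactivators at genes of oxidative metabolism. Its promoter on chromosome 19 (6898273 to 6899871) had group levels near 313 normalised counts in AThi, 276 in ATlo and 403 in young HSCs. In the authors' deposited tables it changed by -0.36 (SE 0.17, adjusted p = 0.159) in AThi HSCs and fell by 0.55 log2 units (SE 0.17, adjusted p = 0.0161) in ATlo HSCs. Both old levels were below the young one, and ATlo was the lower of the old fractions.

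The coactivators did not move alike. Ppargc1b, which encodes PGC-1β, had promoter changes of -0.29 (adjusted p = 0.14) in AThi and -0.35 (adjusted p = 0.0618) in ATlo HSCs in the authors' deposited tables, and it was called lower in the pooled comparison (-0.32, adjusted p = 0.0225). Pprc1, which encodes the third, PGC-1-related family member, had -0.05 and -0.31 in the authors' deposited tables, with adjusted p of 0.893 and 0.19. Nrf1, whose factor binds promoters of respiratory chain and import genes, had 0.37 in AThi HSCs (SE 0.15, adjusted p = 0.0916) and 0.07 in ATlo HSCs (SE 0.15, adjusted p = 0.838) in the authors' deposited tables. With group levels near 422 in AThi, 343 in ATlo and 327 in young HSCs, Nrf1 had the largest positive promoter change in the set. None of its 7 peaks outside the promoter was called, on the authors' scaling.

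Ppargc1a, the gene of PGC-1α, held 16 peaks, more than any other member, and its promoter and its distant peaks behaved differently. The files place its peaks by the nearest of more than 1 annotated start of the gene. The main promoter peak, 0.655 kb past the nearest of them, had group levels near 154 in AThi, 160 in ATlo and 158 in young HSCs. Its changes in the authors' deposited tables were -0.04 (SE 0.16) in AThi and 0.02 (SE 0.16) in ATlo HSCs, with adjusted p of 0.921 and 0.972. A peak 27.8 kb upstream on chromosome 5 (51752902 to 51753323) rose 4.89-fold in AThi HSCs (a log2 change of 2.29 with an SE of 0.47 and an adjusted p of 5.55e-05) and 5.18-fold in ATlo HSCs (log2 change 2.37, SE 0.46, adjusted p = 1.97e-05), per the authors' deposited tables. Both old fractions, near 25.2 in AThi and 26.8 in ATlo HSCs, stood well above young HSCs, near 5.16.

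A further pair of Ppargc1a peaks passed in AThi HSCs. A peak in intron 2, 9.14 kb past the nearest start, rose by 1.43 (SE 0.45, adjusted p = 0.0209) in AThi HSCs and had 1.21 (SE 0.45, adjusted p = 0.0654) in ATlo HSCs in the authors' deposited tables. A peak 119 kb beyond the start rose by 1.09 (SE 0.31, adjusted p = 0.007) in AThi HSCs and had 0.76 (SE 0.31, adjusted p = 0.103) in ATlo HSCs in the same tables. The difference between the fractions was not called at either peak (log2 AThi over ATlo 0.22 and 0.33, 95% intervals -0.72 to 1.16 and -0.32 to 0.99). A very weak peak 459 kb away, with a mean of 5.66 normalised counts, had changes of 3.52 (SE 0.88) and 3.72 (SE 0.86) in AThi and ATlo HSCs but no adjusted p in the authors' deposited tables, and it was called higher in the pooled comparison (3.62, adjusted p = 0.000142). The assignment of such far peaks to Ppargc1a is by the nearest start site alone. All 4 peaks stayed above young after recentring on the strongest promoters, which raises every change from young and so could not reverse them.

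The factors that transcribe mtDNA lay slightly lower together, and none passed in either fraction alone. Tfam packages mtDNA and starts its transcription; its promoter had group levels near 216 in AThi, 200 in ATlo and 272 in young HSCs. The authors' deposited tables gave Tfam changes of -0.33 (SE 0.17, adjusted p = 0.222) in AThi and -0.44 (SE 0.17, adjusted p = 0.0703) in ATlo HSCs, and the pooled comparison called it lower (-0.39, adjusted p = 0.0376). Tfb1m, a methyltransferase of mitochondrial ribosomal RNA, likewise passed only when the fractions were pooled (-0.36, adjusted p = 0.0161). Tfb2m, the transcription factor that opens mtDNA promoters, and Polrmt, the mitochondrial RNA polymerase, did not pass there either (adjusted p = 0.125 and 0.171). The 4 main promoters ranged from -0.34 to -0.17 in AThi and from -0.44 to -0.33 in ATlo HSCs in the authors' deposited tables.

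The replication genes held the largest promoter fall of the set and also a promoter that did not fall. Polg encodes the catalytic subunit of the mtDNA polymerase. Its promoter on chromosome 7 (79115241 to 79116769) had group levels near 330 in AThi, 278 in ATlo and 448 in young HSCs, so both old groups were lower. The authors' deposited tables gave -0.44 (SE 0.14, adjusted p = 0.0189), or 0.737-fold, in AThi HSCs and -0.69 (SE 0.14, adjusted p = 3.42e-05), or 0.621-fold, in ATlo HSCs. The difference between the fractions was not called (log2 AThi over ATlo 0.25, 95% interval -0.05 to 0.55). A weak peak 8.55 kb upstream of Polg had group levels near 6.99 in AThi, 5.90 in ATlo and 16.3 in young HSCs and was called lower in the pooled comparison (-1.34, adjusted p = 0.0139). After recentring on the strongest promoters the Polg promoter had -0.22 in AThi HSCs (adjusted p = 0.325) and passed in ATlo HSCs and in the pooled comparison.

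Twnk encodes Twinkle, the helicase that unwinds mtDNA ahead of the polymerase. Its promoter had -0.44 (SE 0.17, adjusted p = 0.086) in AThi HSCs and fell by 0.54 log2 units (SE 0.17, adjusted p = 0.0209) in ATlo HSCs in the authors' deposited tables, with group levels near 183 in AThi, 170 in ATlo and 248 in young HSCs. Mrpl43, a mitochondrial ribosomal protein gene, starts within 1 kb of Twnk in the opposite direction, so the fall may not belong to Twnk alone. Polg2, the accessory subunit that holds the polymerase on DNA, had the strongest promoter of all members and changes of 0.17 (SE 0.12, adjusted p = 0.43) and 0.02 (SE 0.12, adjusted p = 0.956) in AThi and ATlo HSCs in the authors' deposited tables. The 95% interval of neither Polg2 change reached the fall at Polg in the same fraction; the difference between the genes was not tested.

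**Figure D4:**
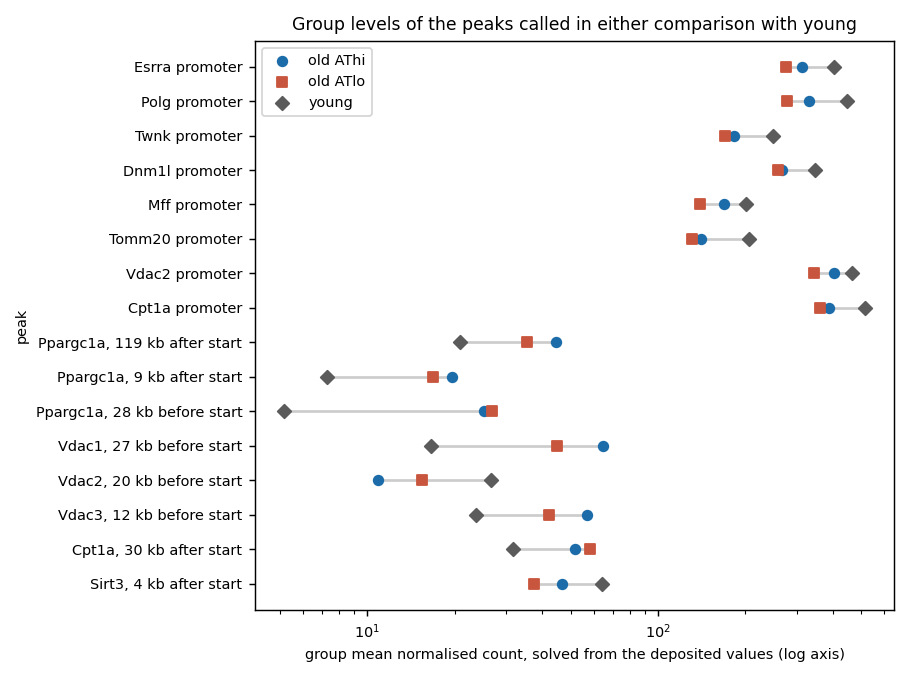
Approximate group mean of normalised counts (x axis, log scale) for the 16 member peaks called in AThi or ATlo HSCs against young, for AThi (circles), ATlo (squares) and young HSCs (diamonds). All 8 promoters have their young level on the right, while the distant peaks of Ppargc1a, Vdac1, Vdac3 and Cpt1a have it on the left.

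Of the fusion genes, none passed in a single fraction. Mfn1 and Mfn2 encode the mitofusins that join outer membranes, and Opa1 the dynamin-like protein that joins inner membranes. Mfn2 had promoter changes of -0.47 (SE 0.21, adjusted p = 0.149) in AThi and -0.54 (SE 0.21, adjusted p = 0.0727) in ATlo HSCs in the authors' deposited tables, and was called lower in the pooled comparison (-0.51, adjusted p = 0.0252). Mfn1 had -0.37 and -0.22, and Opa1 -0.13 and -0.40, in AThi and ATlo HSCs, with adjusted p of 0.114 or more in the authors' deposited tables. The 10 peaks of these genes outside promoters were not called; the smallest adjusted p among them was 0.0652, at an Opa1 peak 110 kb beyond the start (-1.30 in AThi HSCs) in the authors' deposited table.

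Of the fission genes, Dnm1l and its receptor Mff fell in ATlo HSCs. Dnm1l encodes DRP1, the dynamin that constricts mitochondria, and MFF recruits it to the outer membrane. The Dnm1l promoter had group levels near 267 in AThi, 259 in ATlo and 346 in young HSCs, and in the authors' deposited tables -0.38 (SE 0.14, adjusted p = 0.0678) in AThi and -0.42 (SE 0.14, adjusted p = 0.0334) in ATlo HSCs. Mff had levels near 169 in AThi, 140 in ATlo and 201 in young HSCs, and the authors' deposited tables gave -0.25 (adjusted p = 0.358) in AThi and -0.52 (adjusted p = 0.0153) in ATlo HSCs. Dnm1l was thus about as low in both fractions, whereas the Mff level in AThi HSCs lay between the other two, with a difference between the fractions that was not called (log2 AThi over ATlo 0.27, 95% interval -0.08 to 0.62). Fis1, Mief1 and Mief2, which encode further adaptors of DRP1, had main promoter changes from -0.13 to 0.04 in AThi and from -0.27 to -0.18 in ATlo HSCs in the authors' deposited tables, and none passed. Relative to the strongest promoters neither Dnm1l (-0.12) nor Mff (-0.22) passed in ATlo HSCs.

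The quality control genes were near or slightly below their young level, and none of 7 promoter peaks passed in a single fraction. Oma1, an inner membrane protease that cleaves OPA1 under stress, had promoter changes of -0.34 (adjusted p = 0.151) and -0.41 (adjusted p = 0.0692) in AThi and ATlo HSCs in the authors' deposited tables and was called lower in the pooled comparison (-0.37, adjusted p = 0.0265). Pink1, the kinase that flags damaged mitochondria for autophagic removal, had -0.04 in AThi and -0.23 in ATlo HSCs in the authors' deposited tables, with adjusted p of 0.921 and 0.471. Phb, a prohibitin of the inner membrane, the matrix proteases Lonp1 and Clpp, and Spg7, a subunit of the inner membrane m-AAA protease, ranged from -0.41 to 0.02 in AThi and from -0.36 to -0.19 in ATlo HSCs in the authors' deposited tables. Lonp1 was the only one of these 4 lower in AThi than in ATlo HSCs (log2 AThi over ATlo -0.15, 95% interval -0.55 to 0.24).

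Yme1l1, the i-AAA protease that processes OPA1 beside OMA1, had only an intron 5 peak assigned to it, with a mean of 7.16 normalised counts, which was not called. Its annotated start lay inside a strong peak on chromosome 2 (23045414 to 23046959) that the authors assigned to the neighbouring gene Mastl, a mitotic kinase, and that was therefore outside the counts above. That peak had group levels near 373 in AThi, 363 in ATlo and 500.03 in young HSCs. It fell by 0.42 (SE 0.14, adjusted p = 0.0316) in AThi and by 0.46 (SE 0.14, adjusted p = 0.0159) in ATlo HSCs as log2 changes in the authors' deposited tables. Both genes start within it, so it cannot be credited to either.

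Of the import genes, Tomm20 fell and the rest did not pass in a single fraction. Tomm20 encodes the receptor that binds presequences at the outer membrane, and its promoter had group levels near 140 in AThi, 131 in ATlo and 206 in young HSCs. The authors' deposited tables gave Tomm20 changes of -0.56 (SE 0.22, adjusted p = 0.087) in AThi, the lowest AThi value of any main promoter, and -0.65 (SE 0.22, adjusted p = 0.0351) in ATlo HSCs. Tomm22, the receptor that also docks the translocase, stood apart from it with 0.31 (SE 0.17, adjusted p = 0.266) in AThi and -0.02 (SE 0.17, adjusted p = 0.966) in ATlo HSCs in the authors' deposited tables. Tomm40, the channel of the outer membrane, and Tomm70a, the receptor for carrier proteins, had nearly equal changes of -0.14 each in AThi and -0.22 each in ATlo HSCs in the authors' deposited tables. Timm23, the channel of the inner membrane, was called lower when pooled (-0.48, adjusted p = 0.0134), and Timm44, which anchors the import motor, was not (-0.35, adjusted p = 0.105). All 12 peaks of these genes outside promoters had pooled changes below 0, from -1.01 to -0.03, and none was called. Of all peaks outside promoters, 51.0% had a pooled change below 0. Relative to the strongest promoters the 12 ran from -0.75 (Tomm40) to 0.23 (Tomm20), so the shared direction was lost.

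The genes of the voltage-dependent anion channels, which pass metabolites through the outer membrane, had called peaks far from their promoters. Only at Vdac1 did the called distant peak have a sign opposite to that of the promoter change. The Vdac2 promoter on chromosome 14 had -0.20 (SE 0.14, adjusted p = 0.422) in AThi HSCs and fell by 0.43 log2 units (SE 0.14, adjusted p = 0.03) in ATlo HSCs in the authors' deposited tables. Vdac1 had promoter changes of -0.19 in AThi and -0.38 in ATlo HSCs (adjusted p = 0.441 and 0.0572), and Vdac3 0.14 and 0.06 (adjusted p = 0.641 and 0.867), in the authors' deposited tables. The promoter thus passed at 1 of the 3 genes, in 1 fraction, and Vdac3 had no change below 0.

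A peak 26.7 kb upstream of Vdac1 on chromosome 11 (52224395 to 52224959) was the member peak with the smallest p. It had group levels near 64.5 in AThi, 44.8 in ATlo and 16.5 in young HSCs and rose 3.91-fold in AThi HSCs (log2 change 1.97, SE 0.30, adjusted p = 4.47e-09) and 2.72-fold in ATlo HSCs (log2 change 1.44, SE 0.30, adjusted p = 9.66e-05), per the authors' deposited tables. The AThi level was the highest and the young level the lowest, with a difference between the fractions that was not called (log2 AThi over ATlo 0.53, 95% interval -0.08 to 1.14). A second peak, 22.6 kb upstream, just missed the threshold in both fractions (0.69, adjusted p = 0.050031 in AThi; 0.68, adjusted p = 0.0504 in ATlo HSCs; authors' deposited tables) and passed when pooled (0.69, adjusted p = 0.00866). The other peaks of Vdac1 were not called. The assignment of the distant peaks to Vdac1 is by the nearest start site alone. On the same chromosome the promoter of Tcf7 (52173756 to 52174861) also rose, by 1.00 in AThi and 0.78 in ATlo HSCs in the authors' deposited tables. Which gene the distant peaks belong to was not tested.

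A peak 12.3 kb upstream of Vdac3 on chromosome 8 (23096147 to 23096715) rose 2.42-fold in AThi HSCs (log2 change 1.28, SE 0.27, adjusted p = 7.37e-05) and 1.79-fold in ATlo HSCs (log2 change 0.84, SE 0.27, adjusted p = 0.0269), per the authors' deposited tables. Its group levels were near 57.2 in AThi, 42.2 in ATlo and 23.6 in young HSCs. Vdac2 had the opposite sign upstream: a peak 19.8 kb away fell by 1.30 (SE 0.43, adjusted p = 0.029) in AThi HSCs and had -0.79 (SE 0.38, adjusted p = 0.189) in ATlo HSCs in the authors' deposited tables. This Vdac2 fall was not called after recentring on the strongest promoters. The rises at Vdac1 and Vdac3, which recentring can only enlarge, were called in both fractions.

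**Figure D5:**
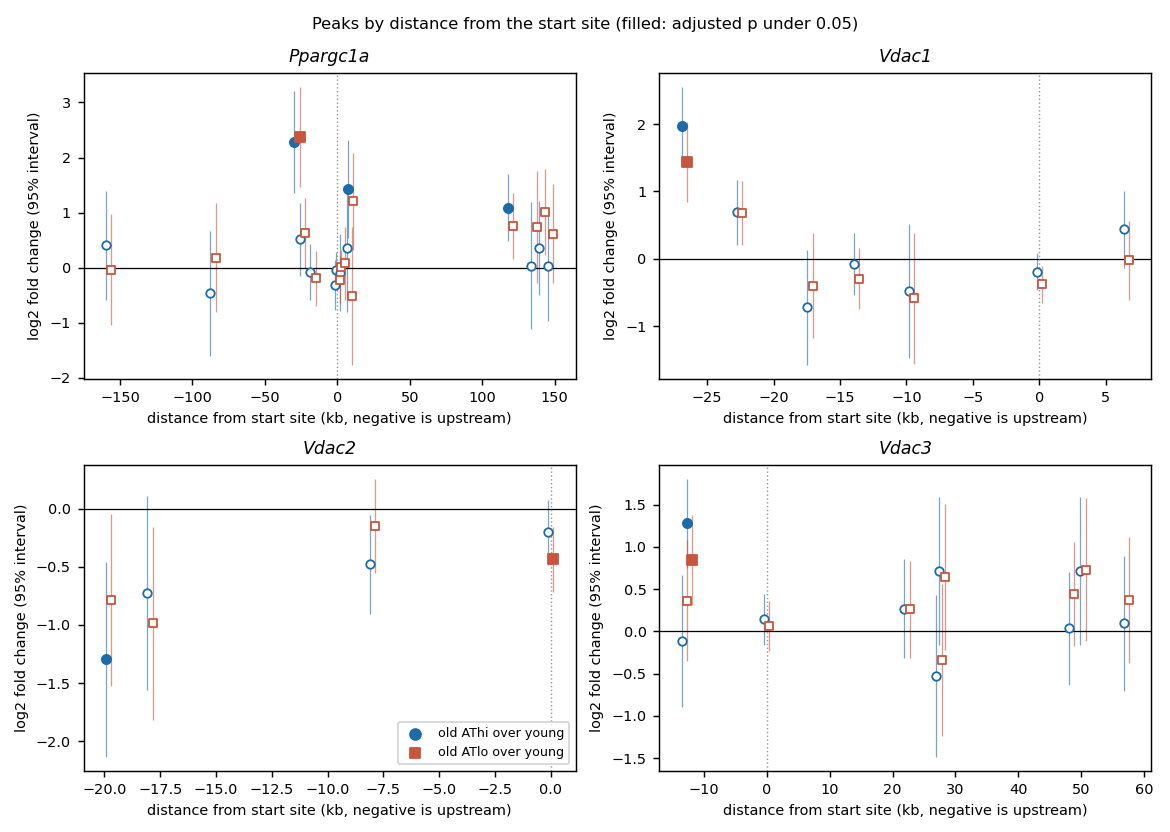
Log2 fold change with its 95% interval (y axis) of each peak by its distance from the assigned start site (x axis, kb, negative upstream; points of the fractions set slightly apart) for Ppargc1a, Vdac1, Vdac2 and Vdac3. Circles are AThi over young, squares ATlo over young, and filled points passed an adjusted p under 0.05; peaks beyond 200 kb of Ppargc1a are not drawn, and the called peaks upstream of Ppargc1a, Vdac1 and Vdac3 lie above 0.

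Of the genes of fuel use, Cpt1a fell at its promoter and rose inside the gene in ATlo HSCs. Cpt1a encodes the enzyme that commits long-chain fatty acids to mitochondrial oxidation. Its main promoter peak on chromosome 19 (3371570 to 3373607) had group levels near 387 in AThi, 360 in ATlo and 517 in young HSCs, and in the authors' deposited tables it changed by -0.42 (SE 0.16, adjusted p = 0.0727) in AThi and by -0.52 (SE 0.16, adjusted p = 0.0161) in ATlo HSCs. A peak in intron 3, 30.1 kb inside the gene, had 0.71 (SE 0.28, adjusted p = 0.0813) in AThi HSCs and rose by 0.88 (SE 0.27, adjusted p = 0.0156) in ATlo HSCs in the authors' deposited tables, with group levels near 51.9 in AThi, 58.5 in ATlo and 31.7 in young HSCs. Promoter and intron thus moved in opposite directions in the same gene. After recentring on the strongest promoters, which raises every change from young, the intron peak passed in both fractions. The promoter then passed in neither (-0.22 in ATlo HSCs).

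Sirt3, the main mitochondrial deacetylase, had promoter changes of -0.54 (SE 0.22, adjusted p = 0.0947) in AThi and -0.45 (SE 0.21, adjusted p = 0.182) in ATlo HSCs in the authors' deposited tables. The promoter, near which the proteasome gene Psmd13 also starts, was called lower when pooled (-0.49, adjusted p = 0.0388). A peak at exon 3 of Sirt3, 4.16 kb inside the gene, had -0.46 (SE 0.25, adjusted p = 0.26) in AThi HSCs and fell by 0.78 (SE 0.25, adjusted p = 0.0257) in ATlo HSCs in the authors' deposited tables. Relative to the strongest promoters this exon peak was not called in ATlo HSCs (-0.47, adjusted p = 0.199). Ucp2, an inner membrane carrier, had -0.31 in AThi and -0.37 in ATlo HSCs at its main promoter peak (adjusted p = 0.34 and 0.237) in the authors' deposited tables. That peak lay 1.99 kb from the start site. Relative to the strongest promoters, the Ucp2 peak over the start had -0.19 in AThi and -0.005 in ATlo HSCs, and neither was called.

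Outside promoters, calls among members were about as frequent as among all such peaks. According to the authors' deposited tables, among members 5 of 85 peaks with an adjusted p rose in AThi HSCs (5.88%) and 1 fell, where 7.71% of all peaks outside promoters rose and 2.19% fell. In ATlo HSCs 4 rose (4.71%) and 1 fell, where 7.27% of all rose and 1.42% fell in the authors' deposited table. In the pooled comparison 8 of 88 were called higher (9.09%) and 3 lower (3.41%), beside 10.5% and 4.38% of all. The 7 genes with a called peak outside their promoter were Ppargc1a, Polg, Vdac1, Vdac2, Vdac3, Cpt1a and Sirt3. Counting every comparison, 18 of the 39 genes had a called peak, beside 46.1% of all 20810 genes, so the share was near the background. At promoters it was 15 of 38 genes, beside 27.4% of the 16346 genes with a promoter peak. Genes with strong promoters, the nearer background, were not counted in this way, and the difference was not tested. These counts are on the authors' scaling.

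A list of 90 other mitochondrial genes that were not members was also counted, and 78 of them had a peak. Their promoters had more falls than rises on the authors' scaling. Relative to the strongest promoters they had more rises than falls (8 and 1 in AThi, 10 and 0 in ATlo HSCs). Over all peaks, rises then made up 93.7% of the calls in AThi and 98.1% in ATlo HSCs. According to the authors' deposited tables, in this list 7 of 92 promoter peaks fell in AThi HSCs (7.61%) and 3 rose, and in ATlo HSCs 13 fell (14.1%) and 3 rose. In the pooled comparison 21 were called lower (22.8%) and 5 higher. Over all promoter peaks the shares called lower were 4.44% in AThi HSCs, 5.98% in ATlo HSCs and 11.8% pooled, and those called higher 7.12%, 5.69% and 8.56%. Among strong promoters 6.51%, 11% and 19.9% were called lower and 5.68%, 3.71% and 6.32% higher. The differences from the list were not tested. In AThi HSCs the falls with the smallest p were in intron 6 of Primpol (-0.79), at the promoter of the chaperone gene Trap1 (-0.69) and in an exon of Supt5 assigned to Timm50, an import receptor of the inner membrane (-1.56), in the authors' deposited table. The falls with the smallest p in ATlo HSCs in the authors' deposited table were at the promoters of Yy1 (-0.67), a transcription factor that acts with PGC-1α, Primpol (-0.69), which restarts stalled DNA synthesis, and Rhot1 (-0.70), which links mitochondria to transport motors. Among the rises with the smallest p, an intron 5 peak of Afg3l2, the partner of Spg7 in the m-AAA protease, had 1.99 in AThi and 2.24 in ATlo HSCs, and a 3′ UTR peak of Esrrb, a relative of Esrra, had 1.87 and 1.47 in the authors' deposited tables. A peak in exon 53 of Dock4, assigned to Immp2l from 180 kb away, had 2.66 and 2.28. Outside promoters 9 of 193 peaks of the list rose (4.66%) and 3 fell in AThi HSCs, and 13 rose (6.74%) and 1 fell in ATlo HSCs, in the authors' deposited tables. Of all peaks outside promoters, 7.71% rose and 2.19% fell in AThi HSCs, and 7.27% rose and 1.42% fell in ATlo HSCs.

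The labelled cell type was checked against markers. Main promoters of 8 HSC genes (Kit, Procr, Slamf1, Hoxa9, Meis1, Mecom, Gata2 and Hlf) had levels from 28.6 to 414 in the authors' deposited table, and Ly6a, also an HSC gene, had no promoter peak. For the other lists the ranges cover only genes with a promoter peak. Main promoters of B cell genes had 13.7 to 67.5 (4 of 5 genes) and of T cell genes 6.55 to 164 (3 of 5). Granulocyte and monocyte genes had 12.6 to 64.7 (3 of 6) and erythroid genes 74.7 to 229 (3 of 5). Megakaryocyte genes had 196 to 283 (4 of 4) and endothelial and stromal genes 28.2 to 130 (5 of 5). Cd79a and Hba-a1 had no peak. The 40 marker genes had 51 promoter peaks, of which 4 rose and 1 fell in AThi HSCs and 4 rose and 4 fell in ATlo HSCs in the authors' deposited tables. Of all promoter peaks 7.12% rose and 4.44% fell in AThi HSCs, and 5.69% rose and 5.98% fell in ATlo HSCs. The markers' falls were all at HSC genes: Meis1 in both fractions (-0.41 in AThi, -0.44 in ATlo HSCs) and Kit (-0.51), Mecom (-0.50) and Hoxa9 (-0.55) in ATlo HSCs. These made 4 of 18 promoter peaks of that list (22.2%) in ATlo HSCs, beside 11% of strong promoters. The strongest promoters had a median change of -0.22 in AThi and -0.30 in ATlo HSCs. The marker changes are not set against that shift here, and their differences from the background were not tested. The rises were at Gata2, an HSC gene (0.90 in AThi, 0.56 in ATlo HSCs), Cxcl12, a stromal gene (1.27 and 0.97), Tcf7, a T cell gene (1.00 and 0.78), and a second promoter peak of Gp9, a megakaryocyte gene (0.93 and 0.78), in the authors' deposited tables; their part in the members' results was not tested.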

How the data were processed

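ATAC-seq of bone marrow HSCs was analysed from 3 tables of the authors' own comparisons (AThi over young, ATlo over young, AThi over ATlo) of the same 94410 peaks, with 3 AThi, 3 ATlo and 5 young libraries. Tools listed in the submitters' processing notes, with no version or order, are DESeq2 and featureCounts, the peak caller MACS2 and annotator ChIPseeker, the aligner BWA, and cutadapt with Trim Galore; the notes give both GRCm38 and mm39 as builds. The deposited level of a peak is the authors' mean normalised count over libraries, a signal per peak, and it is not divided by peak length. The authors deposited each change as a log2 ratio with its SE, a Wald statistic (a score, the ratio of the change to its SE), a p-value and an adjusted p-value. The tables held 0 columns of values per library, so depth per library is unknown, no count test could be fitted, and the authors' DESeq2 contrasts replaced the fit first planned. The AThi and ATlo changes differed by the deposited AThi over ATlo change to within 1.02e-14, so the tables come from 1 fit. In the comparisons with young, 1831 peaks, with means of at most 5.96, carry no adjusted p and stay uncalled there.

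The AThi and ATlo changes were averaged here, with an SE from the covariance that the 3 SEs imply, a normal p and Benjamini-Hochberg adjustment over all peaks. Intervals are 1.96 SE to each side. No source says that libraries came from separate animals, so p-values measure only the spread between these libraries, which may be technical. Group levels assume an unweighted mean over the 11 libraries; they and the strong-promoter background were added after seeing the data. Entrez identifiers matched RefSeq (GRCm38.p6) for 20791 of 20810 genes and for all 39 members; that table gave names, neighbours and promoter sequences only. By its offset from 10 neighbouring starts in both builds (within 100 bases), the RefSeq start matched that of the main promoter peak in 34 of 35 genes with both, all but Ppargc1a. Named peaks are the main promoter of each member and, outside promoters, the called peaks and those with the smallest p of a gene; for other lists, in each direction the 3 peaks of smallest p. The members and lists were chosen with earlier results of these data known. The calculations were tested on simulated data, in Python 3.11.15 with numpy 2.4.6, pandas 2.3.3, scipy 1.17.1 and matplotlib 3.10.9. Alternatives were other thresholds, a 2-fold minimum, filters on the mean count, promoters within 1 kb only and recentring on the median of all peaks or on the 2289 strongest promoters. The level of 1 marker gene is not reported here.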

Additional observations from a re-analysis of the deposited data

How the results depend on the processing

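No paired analysis was possible because the deposited tables hold no value per library; leaving out a library, the replicate block and other size factors were not run for the same reason. The zero point of the changes moved the split of higher against lower calls: relative to the 2289 strongest promoters, higher calls over all peaks made up 93.7% in AThi and 98.1% in ATlo HSCs, against 73.4% and 73.0% on the authors' scaling, and the cause was not tested. The members' promoter median became 0.015 in AThi HSCs, -0.026 in ATlo HSCs and -0.037 pooled. Calls among the members' promoters then numbered 3 in AThi HSCs (3 higher), 2 in ATlo HSCs (1 higher, 1 lower) and 5 pooled (4 higher, 1 lower), against 1, 8 and 16, all lower. Recentred on the median of all peaks they numbered 2, 5 and 10. At an adjusted p under 0.01 they numbered 0, 1 and 5, and under 0.1 there were 8 in AThi and 17 in ATlo HSCs; a 2-fold minimum left 0 in each. Outside promoters, the 5 member calls in ATlo HSCs became 2 under 0.01, 9 under 0.1, 2 with a 2-fold minimum and 9 relative to the strongest promoters, and the 11 pooled calls became 7 with a 2-fold minimum.

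For the other mitochondrial genes, the 10 promoter calls in AThi HSCs became 3 under 0.01, 21 under 0.1 and 2 at 2-fold. The 16 in ATlo HSCs became 7 under 0.01, 1 at 2-fold and 10 relative to the strongest promoters, and the 26 pooled became 13, 2 and 15. Outside promoters the 12 calls in AThi HSCs became 25 under 0.1 and 24 relative to the strongest promoters, the 14 in ATlo HSCs became 7 under 0.01, 26 under 0.1 and 31 relative to the strongest promoters, and the 28 pooled became 14 under 0.01 and 16 at 2-fold. No named peak that was called changed sign under any of these settings; of 69 named peaks, 15 uncalled ones in AThi and 16 in ATlo HSCs did relative to the strongest promoters. Precision was limited at weak peaks: the SE of the AThi change had a median of 0.42 at the members' peaks outside promoters and 0.16 at their main promoters.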

Other observations

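Among the other mitochondrial genes, promoter peaks of relatives of Esrra rose, and these peaks were chosen after their values were seen. The fall at the Esrra promoter in ATlo HSCs was not called relative to the strongest promoters (-0.24, adjusted p = 0.356). The promoter of Esrrb, which encodes the orphan receptor ERRβ, rose by 1.40 in AThi HSCs (SE 0.25, adjusted p = 2.07e-06) and by 1.19 in ATlo HSCs (SE 0.25, adjusted p = 0.000111) as log2 changes in the authors' deposited tables. A weaker promoter peak of Esrrg, which encodes ERRγ, rose by 1.35 (adjusted p = 1.42e-06) in AThi and by 0.84 (adjusted p = 0.012) in ATlo HSCs in those tables. The main promoter peak of Esrrg was not called, with 0.31 and 0.24 (adjusted p = 0.387 and 0.538). The levels of these peaks averaged 52.9 normalised counts at Esrrb, 63.2 at the called Esrrg peak and 98.1 at the main Esrrg promoter, against 344 at Esrra. The promoter of Usp30, a deubiquitinase of the outer membrane that opposes removal of mitochondria, rose by 0.72 (adjusted p = 0.0109) in AThi and by 0.59 (adjusted p = 0.0479) in ATlo HSCs in the authors' deposited tables.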
